A study of Mus musculus with 14 samples.

Results

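Myelin is the lipid-rich membrane that glial cells wrap around axons. The set described here consists of 8 genes of myelin and of the cells that make it (*Mbp*, *Pmp22*, *Mag*, *Mog*, *Mobp*, *Cnp*, *Sox10* and *Pdgfra*), chosen by symbol through the RefSeq identifiers of the RNA-seq tables, out of 22525 gene symbols measured. All 8 were found in every library, each as 1 locus. The 11 RNA-seq libraries came from mouse cells and tissues of the C57BL/6 background, with 1 library per condition. Of these, 8 were cultures. JM8 ES cells, labelled wild type (WT), and the 1 ES cell clone Taf9b_BG10, labelled TAF9B -/- (KO), were sequenced undifferentiated and as embryoid bodies (EBs) at days 2, 4 and 6 of motor neuron differentiation with retinoic acid at 1 μM and SAG, an agonist of smoothened, at 0.8 μM. The KO allele has a LacZ-Neo cassette instead of the coding exons of *Taf9b*, an X-linked gene. ES cells of either label were kept on feeder layers of inactivated mouse embryonic fibroblasts. The 3 tissue libraries were newborn lumbar spinal column of WT and of *Taf9b* KO mice, which holds the vertebrae around the cord as well, and newborn spinal cord of WT mice. The number of animals behind a tissue library is not given in the sources used here. ChIP-seq peaks of TAF9B and RNA polymerase II (POL2) came from WT motor neuron EBs of day 8, made from the HBG3 line, which carries a GFP reporter of motor neurons.

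In the central nervous system myelin is made by oligodendrocytes, which arise from precursors that carry the growth factor receptor PDGFRA, and in peripheral nerves by Schwann cells, which derive from the neural crest. MBP, CNP and MAG occur in the myelin of both. MOG and MOBP belong to central myelin, MOG being placed on its outer surface late in maturation, and PMP22 is a main protein of compact peripheral myelin. SOX10 is the transcription factor that both lineages need. In the mouse spinal cord myelin begins to form around birth, so the newborn tissues stand at its start.

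Values are FPKM, the fragments mapped to a gene divided by transcript length and by library size, so levels can be set side by side between genes. A ratio is the log2 of 2 FPKM values with nothing added, and a gene counts as past the threshold when either library compared exceeds 1 FPKM and the values differ more than 2-fold. With 1 library per condition no difference has a replicate check, a test within a condition could not be made, pairs of different stages were not pooled into one, and the order of neighbouring levels carries no error. The depth behind the values is unknown. Between 11676 and 13639 loci were above 1 FPKM in a library. *Taf9b* itself went against the labels in culture. It was at 0.537, 0.516, 1.96 and 1.37 FPKM in the ES cell, day 2, day 4 and day 6 libraries labelled WT and at 3.06, 4.08, 4.27 and 4.01 FPKM in those labelled KO. In spinal column it was at 6.65 FPKM in the WT and at 3.31 FPKM in the KO library. The KO libraries are therefore named by their label in what follows, and each direction drawn from them rests on that label. Spinal column, spinal cord and each culture pair were normalized in separate tables. The WT ES cell library, which is listed both in the ES cell and in the cord table, is higher in the latter by a median factor of 1.09.

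The members common to both kinds of myelin, *Mbp*, *Cnp* and *Mag*, had higher levels in each of the 3 tissue libraries than in any of the 8 cultures. *Mbp* (myelin basic protein, which holds the cytoplasmic faces of the membrane together) lies on chromosome 18 of mm9 from 82644515 to 82755029. It was at 1.48 and 1.65 FPKM in the ES cell libraries labelled WT and KO, at 2.17 and 2.58 FPKM at day 2, at 6.60 and 7.01 FPKM at day 4, and at 10.8 and 4.78 FPKM at day 6. In tissue it stood at 57.1 FPKM in WT spinal column, 54.0 FPKM in KO spinal column and 61.8 FPKM in spinal cord. All 3 tissue libraries were thus above the 8 culture libraries, and within culture the level was highest in the day 6 library labelled WT. The annotated start sites of *Mbp* are spread over 88.1 kb. The upstream ones give the golli transcripts, which are also made outside myelin, and the locus value holds them together with those of classic myelin basic protein, so that the 2 kinds cannot be told apart.

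*Cnp* (a phosphodiesterase of non-compact myelin that appears early in oligodendrocytes; chromosome 11, 100436253 to 100443053) was measured at 8.43 and 7.63 FPKM in ES cells labelled WT and KO, 5.88 and 4.48 FPKM at day 2, 2.89 and 3.03 FPKM at day 4, and 7.56 and 6.10 FPKM at day 6. It was at 28.1 and 27.0 FPKM in WT and KO spinal column and at 43.6 FPKM in spinal cord. The lowest culture values were those of day 4, and tissue and culture did not overlap. *Mag* (myelin-associated glycoprotein, an adhesion molecule of the membrane next to the axon; chromosome 7, 31684202 to 31699851) was below 1 FPKM in all 8 culture libraries, with a lowest value of 0.0280, a median of 0.050 and a highest value of 0.120 FPKM. In tissue it was at 3.87 FPKM in WT spinal column, 2.31 FPKM in KO spinal column and 3.97 FPKM in spinal cord. *Mag* was thus detected above 1 FPKM in tissue only, among these 11 libraries.

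The members of central myelin proper, *Mog* and *Mobp*, were below 1 FPKM in the newborn tissues. *Mog* (myelin oligodendrocyte glycoprotein; chromosome 17, 37147685 to 37160343) did not reach 1 FPKM in any of the 11 libraries. Its levels were 0.406 FPKM in WT spinal column, 0.119 FPKM in KO spinal column and 0.543 FPKM in spinal cord, against 0.00511 to 0.268 FPKM in culture. The KO spinal column library lay below the WT ES cell library, so tissue and culture overlapped. *Mobp* (a small basic protein of compact central myelin; chromosome 9, 120058860 to 120085209) ran the other way. It was at 1.03 and 0.773 FPKM in ES cells labelled WT and KO, at 0.435 and 0.487 FPKM at day 2, at 0.966 and 1.46 FPKM at day 4, and at 2.76 and 1.96 FPKM at day 6. In tissue it was at 0.216 FPKM in WT spinal column, at 2.48e-06 FPKM in KO spinal column and at 0.106 FPKM in spinal cord. All 8 cultures were thus above all 3 tissues, and the highest level of this central myelin gene was that of EBs at day 6. The share of all genes with every culture above every tissue was not computed.

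*Pmp22* (peripheral myelin protein 22, a membrane protein whose gene dosage is the cause of common inherited neuropathies, and which fibroblasts and epithelia also make; chromosome 11, 62945012 to 62973048) had the highest level of the 8 genes in a single library. It was at 8.03 and 7.98 FPKM in ES cells labelled WT and KO, at 1.41 and 1.77 FPKM at day 2, and stood at 9.97 and 17.1 FPKM at day 4 and at 25.1 and 32.9 FPKM at day 6. In tissue it reached 168.5 FPKM in WT and 185.9 FPKM in KO spinal column, against 28.8 FPKM in spinal cord. The spinal cord was below the day 6 library labelled KO, so only spinal column stood clear of the cultures.

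The regulator and the receptor of glial precursors were highest in tissue. *Sox10* (chromosome 15, 78985343 to 78994920) was below 1 FPKM in every culture, from 0.0744 FPKM in ES cells labelled KO to 0.638 FPKM at day 6 labelled KO, with a median of 0.371 FPKM. It was at 15.2 FPKM in WT spinal column, 8.40 FPKM in KO spinal column and 25.0 FPKM in spinal cord. *Pdgfra* (receptor of platelet-derived growth factor on oligodendrocyte precursors, and equally a receptor of fibroblasts and other mesenchyme; chromosome 5, 75548316 to 75594229) was at 1.98 and 2.72 FPKM in ES cells labelled WT and KO, at 1.10 and 1.48 FPKM at day 2, at 0.308 and 1.15 FPKM at day 4, and at 1.88 and 5.89 FPKM at day 6. In tissue it was at 24.7 FPKM in WT spinal column, 15.6 FPKM in KO spinal column and 20.5 FPKM in spinal cord. The 3 tissues lay above the 8 cultures for *Mbp*, *Cnp* and *Pdgfra*, and for *Mag* and *Sox10*, which exceeded 1 FPKM in tissue alone and so entered through the libraries in which they are high. The same held for 19.1% of all genes above 1 FPKM in some library, and nothing is read from the members' count against it.

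**Figure D1:**
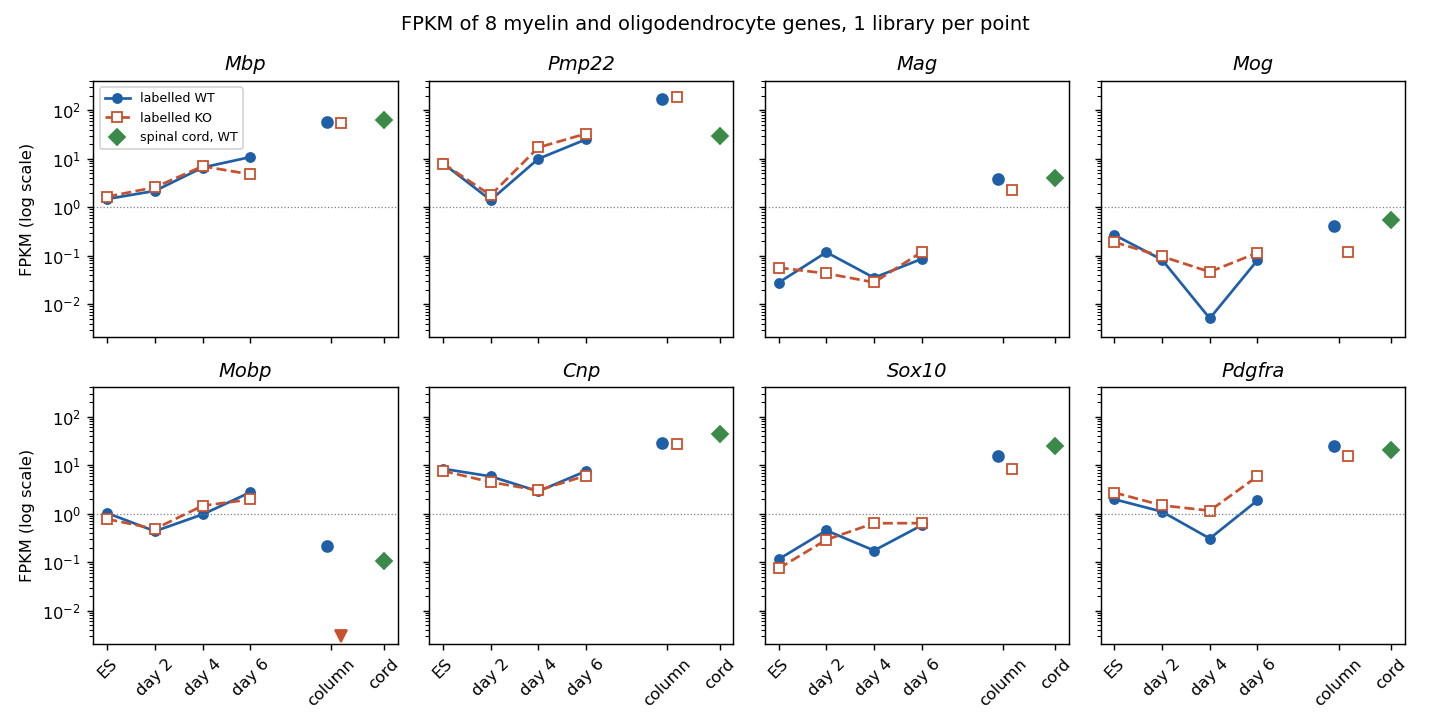
FPKM on a log axis of each of the 8 genes in ES cells and EBs at days 2, 4 and 6 (circles, library labelled WT; open squares, library labelled KO), in spinal column and in spinal cord (diamond). Each point is 1 library, the dotted line marks 1 FPKM, and the triangle marks *Mobp* in KO spinal column, which lies below the axis at 2.48e-06 FPKM; *Mobp* is the gene with all cultures above all tissues.

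The comparison of spinal column with spinal cord asks how far central and peripheral myelin genes differ when the tissue around the cord is part of the sample. Of the 6 members above 1 FPKM in 1 of these WT libraries, *Pmp22* was the 1 past 2-fold, 5.85-fold higher in spinal column (log2 ratio 2.55). None was past 2-fold lower. Of all 13903 genes above 1 FPKM, 17.2% were past 2-fold higher and 15.9% past 2-fold lower, so that 1 and 0 of 6 are no more than the share among all genes. *Mbp* differed little between the tissues, with a log2 ratio of -0.11, and so did *Mag*, with -0.03. *Cnp* was 1.55-fold and *Sox10* 1.65-fold lower in spinal column, and *Pdgfra* had a log2 ratio of 0.27. Over genes that exceed 1 FPKM in both tissues the median log2 ratio was -0.11. Relative to it *Pmp22* was at 2.66, *Sox10* at -0.61, *Cnp* at -0.52 and *Pdgfra* at 0.38, *Mbp* was at -0.0019 and *Mag* turned to 0.08. In bulk tissue fewer cells of a type and less RNA per cell cannot be told apart.

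Of 9 genes of the peripheral myelin list, 8 were above 1 FPKM. The 7 of these other than *Pmp22* had lower ratios than it, 5 higher in spinal column and 2 lower, with a median log2 ratio of 0.35 against -0.07 over all genes tested. Past 2-fold were *Pmp22* and *Dhh* (the hedgehog ligand of Schwann cells, 6.33 FPKM in column and 2.45 FPKM in cord) upward, and *Drp2* (a dystrophin-related protein of Schwann cells, 2.40 and 5.04 FPKM) downward. *Prx* (8.67 FPKM in column, 6.81 FPKM in cord) and *Pmp2* (2.31 and 2.24 FPKM), both of Schwann cell myelin, were present in the spinal cord library too. These 2 genes of peripheral myelin were thus within 2-fold of their spinal column level in the spinal cord library. *Prx* was also above 1 FPKM in every culture, from 1.01 FPKM at day 4 to 3.14 FPKM at day 2, both labelled KO. It thus does not mark Schwann cell myelin alone. *Pmp2* was at most 0.0218 FPKM in culture.

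Genes of central myelin leaned towards spinal cord. Of the 12 on that list, 5 were above 1 FPKM in 1 of the tissues and all 5 had a lower value in spinal column, with a median log2 ratio of -0.52. Relative to the median of all genes *Aspa* (2.52 FPKM in column, 2.58 FPKM in cord) was the exception. *Bcas1*, a marker of oligodendrocytes that begin to myelinate, was at 2.94 and 9.22 FPKM, and *Gpr37*, a receptor of maturing oligodendrocytes, at 2.57 and 5.21 FPKM, and these 2 were past 2-fold. *Cldn11*, which forms the tight junctions of central myelin, was at 12.5 and 13.7 FPKM, and *Tspan2* at 5.96 and 8.51 FPKM. The late genes *Mog*, *Mobp*, *Opalin*, *Ermn* and *Hapln2* were below 1 FPKM in both tissues, *Opalin* being listed at 0. For 9 genes common to both kinds of myelin the median was -0.58, with 2 higher and 7 lower in spinal column and *Gjb1* (0.769 and 1.80 FPKM) past 2-fold.

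Precursor genes were on a list for each lineage, and the difference between the lists was not tested. Of 7 oligodendrocyte precursor genes, 6 were above 1 FPKM and 4 of them were past 2-fold lower in spinal column, with a median log2 ratio of -1.48. *Gpr17*, a receptor of committed precursors, was at 3.71 and 15.7 FPKM and *Lhfpl3* at 3.74 and 12.4 FPKM, the lowest ratios of the list. *Pdgfra* and *Cspg4* (the NG2 proteoglycan, 10.04 FPKM in column and 3.09 FPKM in cord), which mesenchymal cells and pericytes also express, were the 2 that were higher, *Cspg4* past 2-fold. All 4 Schwann cell precursor genes were higher in spinal column, 3 of them past 2-fold, with *Ngfr* (the low-affinity neurotrophin receptor) at 48.8 and 18.8 FPKM, *Cdh19* at 1.70 and 0.594 FPKM, *Erbb3* (the neuregulin receptor) at 4.02 and 1.70 FPKM and *Foxd3* at 4.43 and 2.61 FPKM. Of 11 glial transcription factors 6 were past 2-fold lower in spinal column, among them *Olig1* (18.3 and 79.3 FPKM) and *Olig2* (4.24 and 14.7 FPKM), while *Sox10* was not. *Tcf7l2* was the 1 past 2-fold higher.

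**Figure D2:**
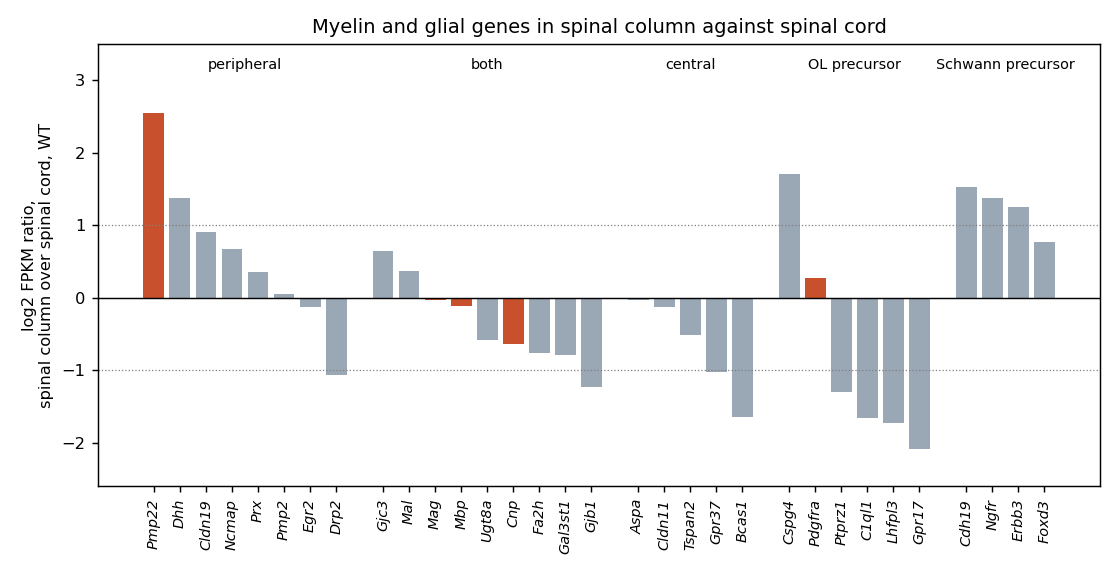
Log2 FPKM ratio of WT spinal column over WT spinal cord for genes that exceed 1 FPKM in either tissue, by list (peripheral myelin, both kinds of myelin, central myelin, oligodendrocyte (OL) precursor, Schwann precursor), with 1 library per tissue. Members of the set are red and the dotted lines mark 2-fold; *Pmp22* at 2.55 is the tallest bar and the 5 central myelin genes are all at or below 0.

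Markers of the other tissues in the column moved with these ratios, and their part in them was not tested. The 8 fibroblast and mesenchyme genes summed to 3168 FPKM in WT spinal column and 265.7 FPKM in spinal cord, with none at 0, and all 8 were higher in column. The 6 cartilage genes summed to 196.3 and 12.0 FPKM, of which *Col2a1* gave 155.7 and 2.52 FPKM. Of these, 5 were past 2-fold higher in column and 1, *Sox9* (3.99 and 8.06 FPKM), past 2-fold lower. The 8 neuronal genes were all lower in column, with sums of 1086 and 2213 FPKM, and so were all 7 astrocyte and radial glia genes, with sums of 282.4 and 1211 FPKM. Of the 6 skeletal muscle genes, *Acta1* and *Myh8* were listed at 0 in WT spinal column with the Cuffdiff status for too many fragments. This status was also set for *Ckm*, and 4 of the 6 were above 1 FPKM in spinal cord, so that spinal cord too held muscle transcripts, with a sum of 155.5 FPKM.

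In spinal column the comparison of the KO with the WT library asks whether the myelin genes have other levels in newborn tissue of the KO label, in which *Taf9b* was lower but not absent (3.31 against 6.65 FPKM). None of the 6 members above 1 FPKM was past 2-fold in either direction, where 8.98% of 13982 genes were past 2-fold higher and 8.47% past 2-fold lower. Of the myelin proteins *Mbp*, *Cnp* and *Pmp22* were nearly level, with log2 ratios of -0.08, -0.06 and 0.14. The 3 others, with *Mag* as the remaining myelin protein, were lower in the KO library: *Sox10* 1.81-fold (log2 ratio -0.85), *Mag* 1.68-fold (-0.75) and *Pdgfra* 1.58-fold (-0.66). In all, 5 of the 6 were lower, with a median of -0.37 against 0.06 over all genes tested. *Mog* and *Mobp* were below 1 FPKM in both libraries and give no ratio of use.

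In the wider lists more precursor genes than myelin genes were past 2-fold, and the difference between the lists was not tested. None of the 5 central, 8 common and 8 peripheral myelin genes above 1 FPKM was past 2-fold, with medians of 0.05, -0.07 and -0.23. The lowest of the peripheral ones were *Drp2* and *Prx*, with log2 ratios of -0.91 and -0.87. All 6 oligodendrocyte precursor genes above 1 FPKM were lower, 3 of them past 2-fold, with a median of -0.93. These were *Ptprz1* (11.3 FPKM in WT and 3.77 FPKM in KO), *Cspg4* (10.04 and 3.64 FPKM) and *Gpr17* (3.71 and 1.63 FPKM). All 4 Schwann cell precursor genes were lower, 2 of them past 2-fold, *Ngfr* at 48.8 and 23.7 FPKM and *Cdh19* at 1.70 and 0.844 FPKM. *Nrg1*, the axonal signal to Schwann cells, was at 3.49 and 1.10 FPKM. Neuronal genes were lower in the same library, all 8 of them and 5 past 2-fold, with sums of 1086 FPKM in WT and 602.0 FPKM in KO and none at 0. Of the 7 astrocyte and radial glia genes 5 were lower, 2 of them past 2-fold (*Slc1a2* and *Aldh1l1*), with a median log2 ratio of -0.59, while their sum of 282.4 and 263.9 FPKM had its largest part from *Fabp7* (136.4 and 150.2 FPKM). Of the 8 fibroblast and mesenchyme genes 5 were higher, *Lum* past 2-fold, with a median of 0.25, while their sum, 3168 FPKM in WT and 2516 FPKM in KO, was lower, as was *Col1a1* alone (1423 and 753.2 FPKM). The 6 cartilage genes, 4 lower and 2 higher with none past 2-fold, had a median of -0.38 and summed to 196.3 and 118.3 FPKM, of which *Col2a1* gave 155.7 and 83.6 FPKM. Of the muscle genes *Acta1* and *Ckm* were listed at 0 in the KO library. The part of these other cells in the ratios was not tested.

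In culture the KO and WT pairs were close in ES cells and at day 2 and further apart at days 4 and 6. In ES cells 0 of 5 members above 1 FPKM were past 2-fold, with 0.464% of all genes past 2-fold higher and 0.574% lower. At day 2 it was 0 of 4, with 1.15% higher and 1.34% lower. The widest log2 ratio among the members above 1 FPKM was 0.46 in ES cells and 0.43 at day 2, both times that of *Pdgfra*, higher in the library labelled KO. At day 4 *Pdgfra* was past 2-fold, 3.75-fold higher in the library labelled KO, from 0.308 to 1.15 FPKM, 1 of 5 members where 12.1% of all genes were past 2-fold higher. With 1 FPKM added to both values the log2 ratio of *Pdgfra* went from 1.91 to 0.72, within 2-fold. None was past 2-fold lower, where 4.29% of all genes were. *Pmp22* had a log2 ratio of 0.77 and *Mobp* of 0.59, and *Mbp* and *Cnp* were level at 0.09 and 0.06.

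At day 6 the members parted. *Mbp* was 2.26-fold lower in the library labelled KO, with 10.8 and 4.78 FPKM in WT and KO, and *Pdgfra* was 3.13-fold higher, with 1.88 and 5.89 FPKM. These were 1 member lower and 1 higher of 5, where 9.84% of all genes were past 2-fold lower and 10.5% higher. *Cnp*, *Mobp* and *Pmp22* stayed within 2-fold, with log2 ratios of -0.31, -0.49 and 0.39, and *Sox10*, *Mag* and *Mog* were below 1 FPKM in both libraries. Among the oligodendrocyte precursor genes only *Pdgfra* and *C1ql1* (24.4 FPKM in WT and 2.93 FPKM in KO) were above 1 FPKM at day 6, and they differed in opposite directions. *Cspg4* was at 0.117 and 0.495 FPKM, and *Gpr17* and *Lhfpl3* were below 0.2 FPKM in both. Of the Schwann cell precursor genes 3 were above 1 FPKM and past 2-fold, *Erbb3* (2.37 and 9.48 FPKM) and *Foxd3* (1.58 and 6.99 FPKM) higher and *Ngfr* (21.7 and 8.12 FPKM) lower in the library labelled KO.

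Genes of other cell types also differed between these libraries. At day 6 all 8 neuronal genes were past 2-fold lower in the library labelled KO, with sums of 1051 and 136.5 FPKM. All 8 fibroblast and mesenchyme genes were higher there, 6 of them past 2-fold, with sums of 51.8 and 137.1 FPKM. At day 4 all 8 of the latter were past 2-fold higher, with sums of 5.56 and 34.3 FPKM, while the neuronal sum was 33.2 and 47.5 FPKM. Of the 6 neuronal genes above 1 FPKM at day 4, *Elavl4* and *Elavl3* were past 2-fold lower and 1, *Nefl*, past 2-fold higher. No gene of either list was at 0 in these 4 libraries. The pluripotency genes were likewise higher in the libraries labelled KO, with sums of 29.2 and 177.1 FPKM at day 4 and 336.6 and 864.5 FPKM at day 6. The part of these cells in the values of *Mbp* and *Pdgfra* was not tested.

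**Figure D3:**
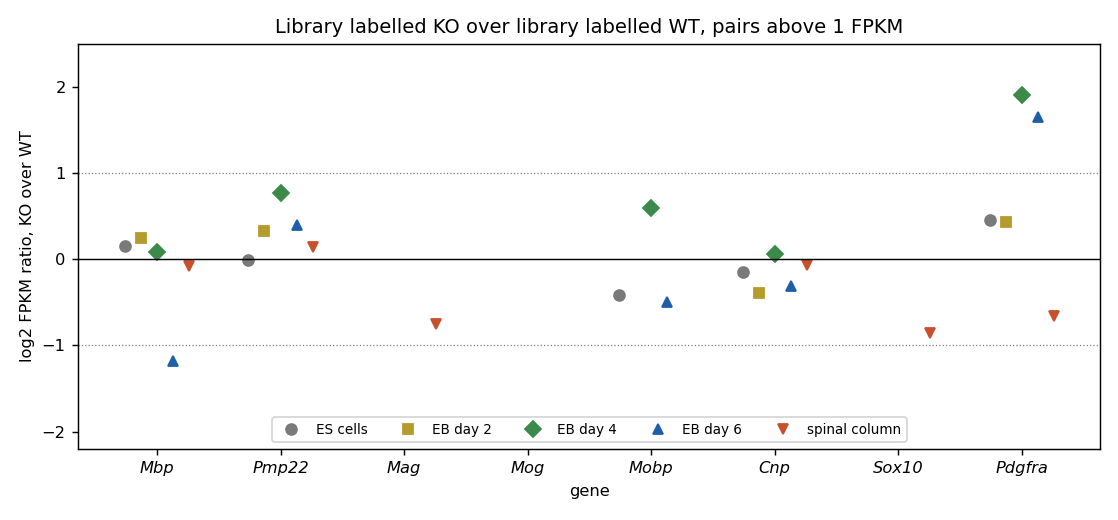
Log2 FPKM ratio, KO label over WT label, for each gene in the 5 pairs, shown where the gene is above 1 FPKM in at least 1 library of the pair; each point compares 1 library with 1 library and dotted lines mark 2-fold. *Mbp* at day 6 and *Pdgfra* at days 4 and 6 lie past 2-fold, and *Mog* has no point.

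Over the WT differentiation, read across separately normalized tables, the 8 genes took different courses. *Mbp* had a higher level at each time, ending 7.30-fold above ES cells at day 6. *Pmp22*, *Cnp*, *Mobp* and *Pdgfra* passed through a minimum, at day 2 for *Pmp22* and *Mobp* and at day 4 for *Cnp* and *Pdgfra*. *Pmp22* ended 3.12-fold and *Mobp* 2.68-fold above ES cells, while *Cnp* and *Pdgfra* ended within 1.12-fold of their ES cell level. The ES cells had grown on fibroblast feeders. The fibroblast and mesenchyme genes summed to 349.1, 51.3, 5.56 and 51.8 FPKM in WT ES cells and days 2, 4 and 6. The part of fibroblasts in the courses of *Pmp22* and *Pdgfra* was not tested. *Sox10*, *Mag* and *Mog* did not reach 1 FPKM. Of the central myelin list, 3 of 12 genes were above 1 FPKM in the day 6 library labelled WT (*Mobp*, *Tspan2* and *Aspa*), and *Opalin* was listed at 0.

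Spinal cord and WT ES cells share 1 table. Of the 7 members above 1 FPKM in 1 of these libraries 6 were past 2-fold higher in spinal cord, where 30.3% of all genes were, and 1 was past 2-fold lower, where 35.7% were. Over genes that exceed 1 FPKM in both of them the median log2 ratio was -0.46, and the values below are not corrected for it. *Sox10* was 199-fold and *Mag* 130-fold higher, from ES cell levels of 0.126 and 0.0305 FPKM in this table, so both folds rest on values near 0. With 1 FPKM added to both values their log2 ratios dropped from 7.63 to 4.53 and from 7.02 to 2.27. *Mbp* was 38.3-fold, *Pdgfra* 9.49-fold, *Cnp* 4.75-fold and *Pmp22* 3.29-fold higher. The fibroblast and mesenchyme genes, 3 higher and 5 lower in spinal cord, summed to 265.7 FPKM there and 380.5 FPKM in the ES cells. The part of the feeders in the ES cell levels was not tested. *Mobp* was 10.6-fold lower, at 0.106 FPKM against 1.12 FPKM in ES cells, and was not past 2-fold with 1 FPKM added (log2 ratio -0.94). *Mog*, at 0.543 and 0.292 FPKM, was below the threshold in both.

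Seen over the 11 RNA-seq libraries, *Mag* and *Sox10* had the most alike profiles among the 8 (Pearson's r of log2(FPKM + 1) = 0.99, n = 11 libraries), and *Mag* and *Mobp* the least alike (r = -0.70). These correlations are a description over 8 cultures and 3 tissues, and none was computed without the tissues. Among 15572 other genes the 3 most alike were *Ly6h*, *Zfp672* and *Tceal5* for *Mbp* (r from 0.98 to 0.99), *Slc6a20a*, *Adcyap1* and *Tmem212* for *Mag* (r = 0.998 for each), *Cdh13*, *Pcp4l1* and *Atp1b2* for *Cnp* (0.98 to 0.99) and *Syn2*, *Caly* and *Ntrk2* for *Sox10* (0.996 to 0.997). For *Pmp22* they were *Igfbp4*, *Mgat1* and *Sh3glb1* (0.98 to 0.99), for *Pdgfra* *Zcchc24*, *Vstm5* and *Prr16* (0.98), and for *Mobp* *Scamp3*, *Esx1* and *1700037H04Rik* (0.94 to 0.95). *Mog*, below 1 FPKM throughout, was closest to *Lancl3*, *Gpr4* and *Pde4a* (0.96 to 0.97). No other myelin gene was among the 3 most alike of any member.

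ChIP-seq of day 8 motor neuron EBs shows where TAF9B and POL2 lay around these genes in EBs made from another ES cell line than the RNA-seq cultures. The deposited lists hold 10415 TAF9B and 8620 POL2 peaks, each from 1 library. A TAF9B peak within 500 bp of a start site was found at 1 of the 8 genes, *Pdgfra*, against 20.6% of all 19115 genes, and a POL2 peak at 1, *Pmp22*, against 33.5%. A peak 0.5 to 50 kb away whose nearest start site belonged to a member was found at 2 genes for TAF9B, *Mbp* and *Mog*, against 13.1% of genes, and at 1 for POL2, *Mog*, against 4.99%. *Mag*, *Mobp*, *Cnp* and *Sox10* had neither, and the peaks within 50 kb of them had a neighbouring gene's start site as the nearest one.

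At *Pdgfra* the TAF9B peak covers 75552279 to 75552476 of chromosome 5 in mm9 (score 98.6 on the authors' scale, above 61.2% of the list) and no POL2 peak overlaps it. Its midpoint lies 186 bp downstream of the second annotated start site, 3.88 kb after the first, so the peak spans the end of the non-coding first exon of the shorter transcript and the intron behind it. The intron bases of the peak are given 5′ to 3′ on the plus strand, since this is the 1 TAF9B peak at a start site of the set. No SOX core was found in them, and no base is in capitals.

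*Pdgfra* TAF9B peak, intron, mm9 chr5:75552375-75552476: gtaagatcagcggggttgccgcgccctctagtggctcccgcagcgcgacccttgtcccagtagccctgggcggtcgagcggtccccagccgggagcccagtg

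Upstream of *Mog*, a gene below 0.3 FPKM in every culture library, a TAF9B peak (chromosome 17, 37165544 to 37166036, score 245.1, above 95.2% of the list) overlapped a POL2 peak (37165343 to 37166153, score 212.1). Its midpoint was 5.45 kb before the *Mog* start, outside any *Mog* exon. The middle 300 bases of the TAF9B peak are given on the strand of *Mog*, because no other member had both factors at 1 place. They hold no SOX core.

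*Mog* upstream TAF9B peak, mm9 chr17:37165641-37165940, minus strand: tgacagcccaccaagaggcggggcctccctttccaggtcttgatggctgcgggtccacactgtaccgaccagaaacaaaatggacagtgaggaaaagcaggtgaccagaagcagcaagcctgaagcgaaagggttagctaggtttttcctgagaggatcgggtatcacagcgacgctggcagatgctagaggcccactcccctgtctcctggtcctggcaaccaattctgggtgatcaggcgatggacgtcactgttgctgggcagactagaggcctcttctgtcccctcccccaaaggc

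In *Mbp* both TAF9B peaks were inside the gene and in introns, 2.11 kb and 9.19 kb downstream of an upstream start site (82646782 to 82646971, score 83.1, and 82653881 to 82654030, score 55.3), in the golli part of the gene and not at the classic start sites. At *Pmp22* the POL2 peak (chromosome 11, 62946125 to 62946879, score 62.5, above 12.1% of the list) covered the 2 most downstream of 5 annotated start sites and the first coding exon. *Pmp22* is known to have alternative promoters, an upstream one used by myelinating Schwann cells and downstream ones used more widely. The 250 bases before the first and before the third start site are given for comparison. The first holds 48.8% and the third 64.8% G and C, and the POL2 peak begins shortly after the third start.

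*Pmp22* before the first start, mm9 chr11:62942234-62942483: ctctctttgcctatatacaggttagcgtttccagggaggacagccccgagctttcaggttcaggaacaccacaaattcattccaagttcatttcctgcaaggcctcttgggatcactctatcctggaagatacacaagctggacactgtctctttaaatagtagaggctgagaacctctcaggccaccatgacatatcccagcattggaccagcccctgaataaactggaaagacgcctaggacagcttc

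*Pmp22* before the third start, mm9 chr11:62945821-62946070: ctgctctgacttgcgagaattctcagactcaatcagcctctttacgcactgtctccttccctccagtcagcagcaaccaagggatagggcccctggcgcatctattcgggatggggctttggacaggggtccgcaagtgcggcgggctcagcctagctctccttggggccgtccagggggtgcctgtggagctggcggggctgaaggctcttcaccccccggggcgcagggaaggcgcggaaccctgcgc

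**Figure D4:**
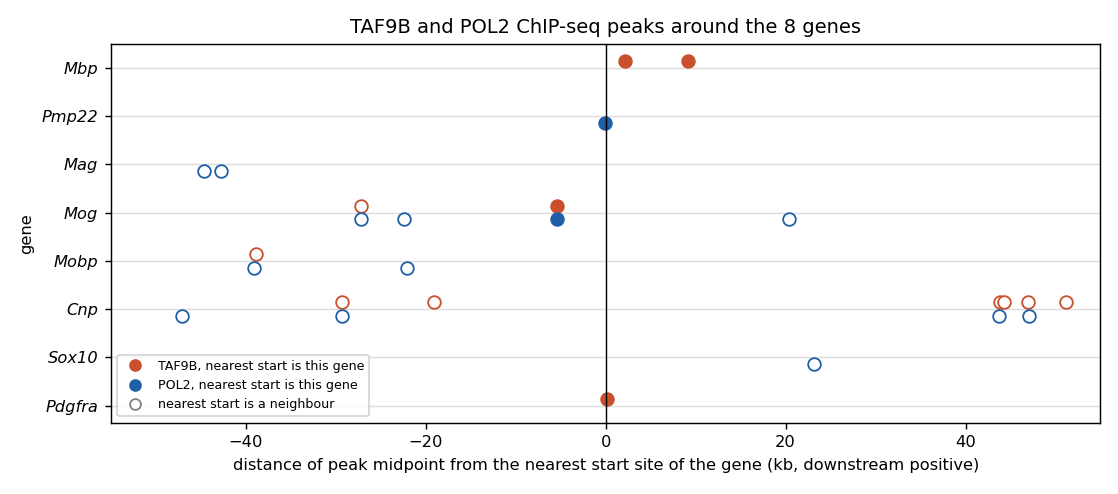
Distance in kb of the midpoint of each TAF9B and POL2 peak from the nearest start site of each of the 8 genes (positive downstream in the direction of transcription), for peaks within 50 kb of the gene. Filled points have a start site of that gene as the nearest, open points that of a neighbour; filled points occur at *Mbp*, *Pmp22*, *Mog* and *Pdgfra*.

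Promoter sequences were searched for motifs in the RefSeq promoter table of GRCm38.p6, in windows from 250 bases before to 50 bases after a start. It matched 6 of the 8 genes (*Pmp22*, *Mag*, *Mog*, *Mobp*, *Cnp* and *Pdgfra*, 11 windows), and *Mbp* and *Sox10* are named only. On either strand the SOX core ACAAAG was in 4 of the 11 windows, against 18.7% of all 32851 promoters, and the SOX core ACAATG in 0, against 12.6%. The E-box CANNTG was in 6 (72.3% of all promoters) and the TATA box TATAAA in 0 (13.6%). Windows of 1 gene can overlap, and a match is a description of letters, not of a site in use.

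The 4 windows with ACAAAG belonged to *Cnp*, *Mag* (2 windows that overlap) and *Mobp*. The window of *Mobp* held it 6 times, from 243 to 120 bases before the start, and it was the 1 window among 32851 with that many. All 6 are on the opposite strand, written CTTTGT, and the 250 bases before the start hold 40.8% G and C. The copies lie in a stretch rich in T. *Mobp* is also the member that was higher in every culture than in every tissue, and a link between the motif count and these levels was not tested. The bases before the start that no annotated exon covers are given for the 3 genes, 5′ to 3′ on the strand of the gene, with the SOX core in capitals. The exact match of each RefSeq window in the mm9 genome gave its position.

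*Mobp*, mm9 chr9:120058610-120058859, plus strand: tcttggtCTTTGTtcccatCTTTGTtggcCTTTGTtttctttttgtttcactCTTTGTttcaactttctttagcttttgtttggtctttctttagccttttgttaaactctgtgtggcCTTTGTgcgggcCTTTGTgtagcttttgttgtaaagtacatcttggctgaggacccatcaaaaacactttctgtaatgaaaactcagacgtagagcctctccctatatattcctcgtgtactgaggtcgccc

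*Mag*, mm9 chr7:31699942-31700191, minus strand: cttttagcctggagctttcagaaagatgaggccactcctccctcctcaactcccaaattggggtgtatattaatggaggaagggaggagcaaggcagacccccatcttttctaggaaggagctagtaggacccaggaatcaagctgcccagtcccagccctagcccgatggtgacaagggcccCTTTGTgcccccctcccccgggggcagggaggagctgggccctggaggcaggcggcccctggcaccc

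*Cnp*, mm9 chr11:100436003-100436217, plus strand: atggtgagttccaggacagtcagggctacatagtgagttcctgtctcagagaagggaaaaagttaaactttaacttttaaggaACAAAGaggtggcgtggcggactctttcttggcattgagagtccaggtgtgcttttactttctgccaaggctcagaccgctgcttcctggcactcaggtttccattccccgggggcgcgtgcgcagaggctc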

How the data were processed

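Poly-A RNA was sequenced in 11 libraries, 1 per condition. The authors mapped reads against RefSeq genes with TopHat and gave each gene an FPKM value with Cuffdiff, on build mm9. The 6 deposited tables, 1 per pair of libraries, hold these FPKM values as the authors normalized them within each pair, a status, and the authors' own fold changes and p-values, which were not used. Read counts and depth are not given in the sources used here, so no interval is stated. The deposited peak lists, made with Bowtie and MACS, give each peak a score by the authors.

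Loci were joined by first accession and position (23109 of 23152 in each table). Symbols came from RefSeq (22789 loci matched), and the locus with the highest mean stood for a symbol with several. Loci with status FAIL or HIDATA in a compared table took no part in counts or in likeness. Log2 ratios were taken without a pseudocount. A gene was counted past 2-fold if above 1 FPKM in at least 1 library. A peak's distance was that of its midpoint to a GENCODE start site of mm9. The members, lists and alternatives were chosen with earlier results of these data known. Named genes are the 8 members, those of each list with the highest or lowest ratios or at least 10 FPKM, and the 3 most alike per member. Any other gene was named with its values in view. Some genes are not reported here and were left out of the lists. The counting was tested on simulated data. Pseudocounts of 1 and 0.1 FPKM, centring, 2 other filters, summed loci, a link through the ES cell library and 3 other settings for peaks were tried. Python 3.11.15, numpy 2.4.6, pandas 2.3.3 and matplotlib 3.10.9 were used.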

Additional observations from a re-analysis of the deposited data

Results flagged for a closer look

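*Pdgfra* was the 1 member above 1 FPKM whose ratio of the library labelled KO to the library labelled WT was past 1.5-fold in both directions in different pairs. Its log2 ratio was 1.91 in EBs at day 4 and 1.65 at day 6, higher in the library labelled KO, and -0.66 in spinal column, lower in the KO library. Each pair compares 1 library with 1 library, so the difference between the pairs was not tested. With the culture labels exchanged all 3 ratios would have the same sign, and an exchange of labels was not tested. The neuronal genes, under the labels as given, had the lower sum in the KO library both at day 6 (136.5 against 1051 FPKM) and in spinal column (602.0 against 1086 FPKM). At day 4 their sum was higher in the library labelled KO (47.5 against 33.2 FPKM). *Taf9b* itself was higher in the libraries labelled KO at days 4 and 6 and lower in the KO library of spinal column.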

How the results depend on the processing

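Of 120 log2 ratios of members recomputed with 1 or 0.1 FPKM added, centring or the link, 112 moved by less than 1.5-fold, 8 moved by more and none changed sign from past 2-fold. The 8 had a low value in 1 of the libraries and 1 or 0.1 FPKM added. Counts of members past 2-fold moved with the handling of low values. With no filter the count was 2 higher in spinal column than in spinal cord (23.1% of all genes), 2 lower in KO spinal column (14.4%), 1 higher in ES cells labelled KO (5.4%), 1 lower at day 2 (8.31%) and 3 higher at day 4 (22%). With 1 FPKM added, and equally with a minimum of 5 FPKM, 0 were past 2-fold higher at day 4 (*Pdgfra* had a log2 ratio of 0.72 with 1 FPKM added) and 0 were past 2-fold lower in spinal cord against ES cells. Centring, summed loci and the link through the ES cell library moved no count of members. For peaks, a window of 5000 bp gave 2 members with TAF9B at a start site, and peaks above the median score gave 0 with POL2 at a start site and 1 with a distal TAF9B peak.

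The culture pairs are of different stages and were not pooled, so no paired analysis was run. The depth is unknown, so values below 1 FPKM, those of *Mog* in every library and of *Mag* and *Sox10* in culture, have an unknown error. They enter the folds of *Sox10* and *Mag* in spinal cord over ES cells, the correlations over the RNA-seq libraries and the counts made with no filter.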

Other observations

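The signals that act between axons and glia were on a separate list of 10 genes. In spinal column against spinal cord 4 were past 2-fold higher, *Adgrg6* (an adhesion receptor that Schwann cells need to myelinate, 3.33 and 1.0 FPKM), *Bmp4* (9.81 and 3.14 FPKM), *Pdgfc* (7.95 and 3.01 FPKM) and *Erbb3*, and 1 was lower, *Lingo1* (an inhibitor of oligodendrocyte maturation, 22.5 and 59.2 FPKM). Of all genes above 1 FPKM, 17.2% were past 2-fold higher and 15.9% past 2-fold lower. *Pdgfa*, a ligand of PDGFRA, was level in the tissues at 27.1 and 28.7 FPKM. In culture it was at 30.6 and 36.3 FPKM in ES cells labelled WT and KO and at 18.5 and 19.5 FPKM at day 2. It was at 12.96 FPKM in the day 4 library labelled WT and 35.3 FPKM in that labelled KO, and at 20.4 and 53.5 FPKM at day 6. At days 4 and 6 the ligand and its receptor were both higher in the library labelled KO, and a relation between them was not tested.

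Melanocyte genes, which mark another derivative of the neural crest, were 5 on their list. In spinal column 4 of them were below 1 FPKM in the WT library and above it in the KO library, so they passed the minimum through the library in which they are high, and their number is no result. *Dct* was at 0.502 FPKM in WT and 2.98 FPKM in KO, *Mlana* at 0.285 and 2.52 FPKM, *Pmel* at 0.808 and 3.19 FPKM and *Tyr* at 0.204 and 1.02 FPKM. *Tyrp1* was at 2.76 and 2.23 FPKM.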
